A study of Mus musculus with 10 samples.

Results

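The 5 wild-type libraries of a 10-library mouse series were examined here: adherent neural stem cell cultures, each made from the cortex of 1 embryo at embryonic day 14.5. They were chosen by their labels, as the total-count columns of embryos with 2 wild-type copies of Smchd1 (+/+), and comprise female 1, female 2, male 1, male 2 and male 3. SMCHD1 is a chromatin protein that takes part in X inactivation. The other 5 libraries came from embryos heterozygous for a GFP-tagged E147A mutation in it (E147A/+) and are used below only to see whether the same genes vary among another set of cultures, and to set some levels beside litter and sex. No comparison of genotypes was made.

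All cells were grown on laminin in a serum-free stem cell medium with EGF at 20 ng/ml and basic FGF at 20 ng/ml. The +/+ females were also heterozygous for the XistdeltaA allele, and the males were XY. Per the labels all embryos had a Castaneus father and a 129/C57 F1 mother. Females 1 and 2 and male 3 came from litter 3, male 1 from litter 4 and male 2 from litter 1. Each culture is thus 1 embryo, and sex, litter and embryo cannot be fully told apart.

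Radial glia are the neural stem cells of the developing cortex. They carry the transcription factor SOX2, the intermediate filaments nestin (Nes) and vimentin (Vim), the fatty acid binding protein FABP7 and the glutamate transporter SLC1A3, and Notch signalling holds back their differentiation through factors such as HES5. In the embryo they give rise to neurons first and to glia later. In culture EGF and FGF keep them dividing, and the cells are known to drift towards a glial progenitor state that includes OLIG2.

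Total counts were 20648916 to 39123104 per library. Before TMM scaling, 1 CPM, a count scaled to library size, thus stood for 20.6 to 39.1 counts. Levels are given as CPM after TMM scaling, and per kilobase of exon (RPKM) where genes are compared with each other. Autosomal genes took 92.7% to 94.2% of the counts and mitochondrial genes 1.61% to 3.02%. The sex labels fitted: Xist was at 970 and 1299 CPM in females and at most 0.498 CPM in males. The Y-linked genes Ddx3y, Eif2s3y, Kdm5d and Uty, summed, reached 1.74% of the male mean in female 1 and 0.456% in female 2. The part of that signal in the results was not tested. By a chi-square check for libraries deposited more than once none was found, and across 13243 genes Pearson's r of log2 CPM was 0.898 (male 1 with male 3) to 0.969 (female 1 with male 3).

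The autosomal allele counts of the females did not match uniform F1 embryos. Of 241 autosomal bins of 10 Mb, females 1 and 2 had the same state of the Castaneus allele (absent or near an equal share) in 126 and different states in 102, and 13 were unclear. Genes in bins of different state differed more than 2-fold between the females in 11.6% of cases, and those in bins of the same state in 9.47%. The part of strain in any single gene below was not tested.

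Of 47913 autosomal genes in the table, 12118 (25.3%) reached 1 CPM in each of the 5 cultures. The RNA was headed by the machinery of protein synthesis. Eef1a1, the translation elongation factor that brings aminoacyl-tRNA to the ribosome, had the highest RPKM at 5313 ± 1365 (SD, n = 5) and took 11151, 17056, 14464, 15065 and 8486 CPM in females 1 and 2 and males 1 to 3. Among the 20 highest autosomal genes by RPKM were the ribosomal protein genes Rplp1 (2660 ± 395 RPKM), Rps15 (1387 ± 365), Rps3a1, Rpl4, Rplp0, Rpl32, Rps29, Rpl8 and Rpl36. Eef2, the factor that moves the ribosome along, stood at 1306 ± 297 RPKM. Many of these genes have processed copies in the genome, and 1 such copy, Gm9794, is itself among the 20 at 1253 ± 366 RPKM, so reads may be split between copies.

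Of the 20, those outside protein synthesis were Txn1, a thioredoxin that keeps protein thiols reduced (1207 ± 156 RPKM), Fabp7 (1034 ± 302), the creatine kinase Ckb (1003 ± 376), the chaperone Hsp90ab1 (1001 ± 112) and Tpt1 (865 ± 181). The remaining 3 were very short genes annotated as miRNAs, Gm23935, Gm24187 and Mir6236, of 57, 57 and 123 bases, whose RPKM rests on that length. By CPM, the list of 10 also held the fatty acid desaturase Scd2 (3931 ± 503 CPM), the D-type cyclins Ccnd1 (2723 ± 341) and Ccnd2 (2153 ± 294), the ribosome-bound scaffold Rack1 (2248 ± 519) and Vim (2200 ± 592). The 10 highest genes took 3.35% to 4.6% of a library together, so no few genes dominated.

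The stem cell label held for all 6 of its markers, each of which passed 1 CPM in each culture. Fabp7 stood at the 99.9th percentile of the 12118 detected genes by RPKM, with 1252, 1026, 1015, 1229 and 1939 CPM in females 1 and 2 and males 1 to 3. Vim had 3108, 1891, 1581, 1990 and 2428 CPM, in the same order, and Nes had 945, 653, 760, 543 and 1106. Both filament genes were lowest in a male culture outside litter 3, and the highest culture was 2.04-fold the lowest for Nes and 1.97-fold for Vim.

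Sox2 was the most even of the markers, at 177, 195, 193, 237 and 192 CPM, or 96.6 ± 10.9 RPKM. Slc1a3 had 915, 980, 1123, 1050 and 625 CPM and was lowest in male 3. Hes5 was the exception, with 16.2, 12.1, 29.1, 20.5 and 3.39 CPM and an SD of log2 CPM of 1.18. Hes5 in male 1 was 8.60-fold that in male 3.

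Of a wider list of 24 stem cell and radial glia genes, all 24 were detected in each culture. Hes5 was the only one with an SD over 1 (4.17% of the list, against 6.38% of all genes tested). The median SD over the list was 0.36, against 0.33 over all 13243 autosomal genes with a mean of at least 1 CPM. Dbi, which binds acyl-CoA (251 ± 32.3 RPKM), the matrix protein gene Tnc (133 ± 68.7) and the receptor phosphatase gene Ptprz1 (78.6 ± 6.83) were also high. Tnc differed most among the 3, with 1811, 492, 677, 850 and 1322 CPM, being highest in female 1 and lowest in female 2. Pax6, a cortical radial glia factor, was lower, at 3.26 ± 0.87 RPKM, and Sox1 at 4.67 ± 0.77.

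**Figure D1:**
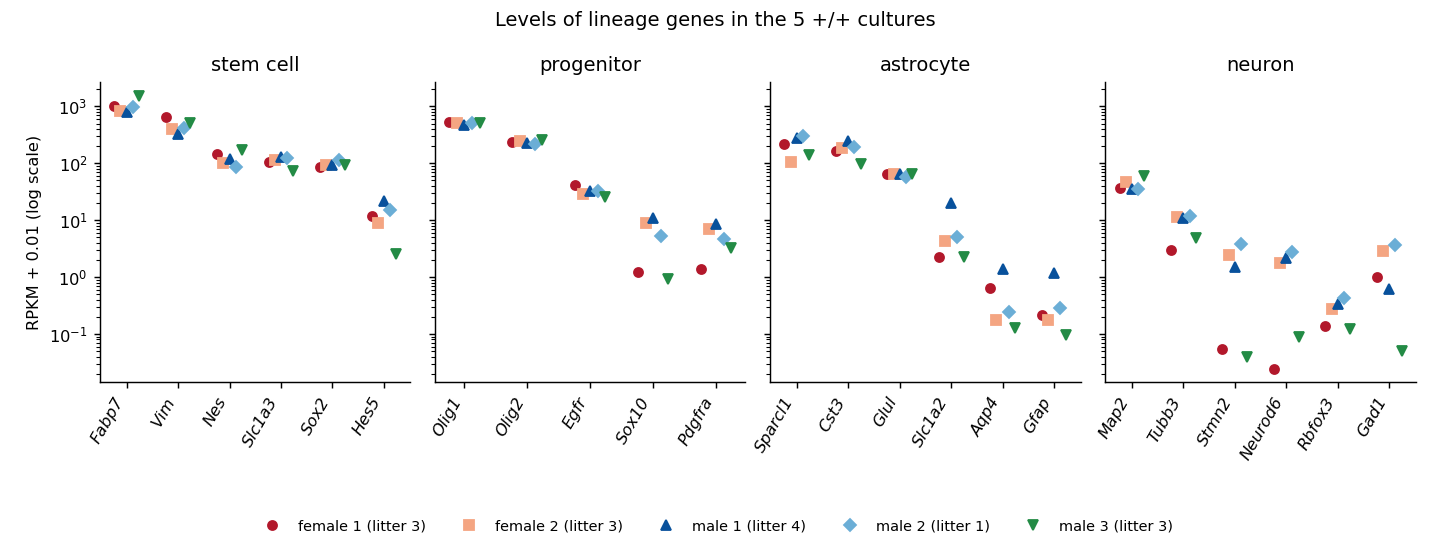
RPKM plus 0.01 on a log axis for genes of the stem cell, progenitor, astrocyte and neuron programmes; each point is 1 of the 5 +/+ cultures. Stem cell genes except Hes5, and Olig1 and Olig2, lie close together and high, while Gfap, Stmn2 and Neurod6 are low and spread.

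Growth factor signalling genes were present throughout. The EGF receptor gene Egfr had 465, 326, 364, 375 and 295 CPM and the FGF receptor gene Fgfr1 283, 215, 203, 223 and 186, each highest in female 1 and lowest in male 3. Of the negative feedback genes that EGF and FGF signals switch on, Spry1 had 82.7 ± 5.68 RPKM (SD of log2 0.10) and Spry2 136 ± 19.2 (0.20). The feedback phosphatase gene Dusp6 was less even, with 286, 354, 245, 152 and 476 CPM (0.61), as was Dusp4 (0.39). The ETS factor gene Etv5, a target of these signals, had 117 ± 19.7 RPKM (0.24). Of the 23 genes of this list, 21 were detected in all 5 cultures, with a median SD of 0.24. The receptor gene Fgfr3 differed more, with 126, 406, 327, 180 and 69.0 CPM (SD of log2 1.03), and was highest in female 2.

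In the Notch pathway, 15 of 17 genes were detected in all 5 cultures. The receptor gene Notch1 had 284, 205, 287, 232 and 133 CPM, and the ligand gene Dll1 73.1, 46.6, 91.6, 73.5 and 38.4. The ligand gene Dll3 was spread wider, at 36.0, 95.6, 134, 102 and 27.3 CPM. All 3 were lowest in male 3, as was Hes5. Of the 15 list genes with a mean of 1 CPM, male 3 was lowest in 11, whereas it was lowest for 25.6% of all 13243 genes. The glycosyltransferase gene Lfng, which modifies Notch receptors, went another way, with 213 CPM in female 1 and 179 in male 3 against 86.0 to 146 in the others.

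Among BMP response genes, Id3, an inhibitor of neurogenic bHLH factors, had 197, 178, 124, 58.1 and 160 CPM. Its relative Id4 had 1.35, 9.44, 12.7, 6.49 and 0.863 CPM (SD of log2 1.70), at or below 1.35 in female 1 and male 3 and above 6 in the others. The BMP ligand genes Bmp2 and Bmp4 stayed at or under 0.800 CPM throughout, and Bmp7 had 92.6 to 135 CPM. Of the Hedgehog genes, the ligand gene Shh had at most 0.0942 CPM and the target gene Gli1 at most 0.471, while the receptor genes Ptch1 and Smo were at 67.0 to 109 and 131 to 166 CPM. The Wnt target gene Axin2 had 35.3 to 53.6 CPM, and Nkd1, a Wnt feedback gene, 8.13, 27.4, 51.0, 36.6 and 8.36 CPM.

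The glial progenitor factors were among the most even genes. Olig1 had 1141, 1090, 1019, 1104 and 1095 CPM (504 ± 20.4 RPKM, SD of log2 0.06), which put it in the 99.7th percentile of detected genes. Olig2, which drives oligodendrocyte lineage entry, had 598, 631, 584, 554 and 640 CPM (SD of log2 0.08). Genes of a later step in that lineage were lower and less even: Sox10 had 3.77, 26.8, 32.9, 16.0 and 2.79 CPM and the PDGF receptor gene Pdgfra 13.8, 68.8, 85.7, 47.0 and 32.9. Sox10 and Pdgfra were both highest in male 1 and next in female 2. Of 12 precursor genes 10 were detected in all 5 cultures and 4 of the 11 with a mean of 1 CPM had an SD over 1 (Sox10, Matn4, Lhfpl3 and Pdgfra), against 6.38% of all genes tested. Myelin genes of mature oligodendrocytes were low: Mbp stayed between 0.628 and 6.05 CPM, and of 11 autosomal genes 3 reached 1 CPM in all cultures, with Cnp the highest at 87.0 to 172 CPM.

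Of 18 astrocyte genes 15 were detected in all cultures. The median over the list was 13.1 RPKM, against 8.15 over all detected genes, but some members were low. The intermediate filament gene Gfap had 0.847, 0.689, 4.97, 1.17 and 0.365 CPM, and the water channel gene Aqp4 3.86, 1.03, 8.48, 1.45 and 0.730. Gjb6, a gap junction gene, had 0 counts in all 5, where 3 counts correspond to 0.0795 to 0.140 CPM. Other members were high: Sparcl1 had 209 ± 85.4 RPKM, Cst3 176 ± 52.2, the glutamine synthetase gene Glul 63.1 ± 3.78 and Aldoc 56.4 ± 7.23. The glutamate transporter gene Slc1a2 was at 259 CPM in male 1 and at 28.8 to 67.4 in the others, and the lipid carrier gene Apoe at 283 in male 1 and 33.4 to 81.0 in the others. Of the 17 list genes with a mean of 1 CPM, male 1 was highest in 8, against 26.7% of all genes tested.

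Neuronal genes were mostly low, and most, but not all, followed 1 of 2 patterns. Of 19 autosomal pan-neuronal genes 13 were detected in all cultures and 9 of the 18 with a mean of 1 CPM had an SD over 1 (6.38% over all genes tested). Stmn2, a microtubule regulator of young neurons, had 0.251, 13.5, 8.52, 21.7 and 0.166 CPM. The tau gene Mapt had 6.62, 28.1, 78.6, 48.9 and 5.61 CPM, and Tubb3 5.49, 21.1, 20.2, 22.4 and 9.09. In these genes female 1 and male 3 were lowest, with no overlap with the other 3 cultures.

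A second set of genes of the same list was highest in those 2 cultures. Gap43, a growth cone protein gene, had 106, 52.0, 22.1, 41.5 and 253 CPM, the neurofilament gene Nefm 28.5, 6.95, 5.77, 6.91 and 41.8, and the synaptotagmin gene Syt1 21.4, 4.51, 1.81, 5.23 and 32.8. Of the 18 genes, 9 were lower in both female 1 and male 3 than in any other culture and 5 were higher. Over all genes tested those shares are 19.8% and 17%. Of this list, 13 genes were detected in all 5 cultures. Members such as Stmn2 passed the mean of 1 CPM only through the cultures where they were high, so these counts are a description and not a test. Map2 was the highest of the list at 42.4 ± 10.3 RPKM, and the mature neuron gene Rbfox3 was at 0.664 to 2.43 CPM.

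Of 4 pan-telencephalic genes 3 were detected in all cultures and 1 in some, and of 16 dorsal telencephalic genes 7 in all, 6 in some and 3 in none. Lhx2, which selects cortical fate, had 60.7, 100.3, 103, 81.4 and 56.4 CPM. The cortical patterning genes Emx2 (33.1 to 60.2 CPM), Pax6 (23.1 to 50.4) and Nr2f1 (55.2 to 98.3) were detected in each culture. None of these 4 genes had an SD over 1, as did 6.38% of all genes tested. Of the 12 dorsal genes with a mean of 1 CPM, 5 had an SD over 1. Genes of other regions were near or at the floor: of 29 Hox genes, which mark the hindbrain and spinal cord, 25 had 0 counts in all cultures and the sum stayed at or under 0.0664 CPM. Of 22 genes for the diencephalon, midbrain and hindbrain 1 (Barhl2) was detected in all cultures, and Gbx2 reached 5.74 CPM in male 3 and at most 0.910 elsewhere.

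Of 16 ventral telencephalic genes 3 were detected in all cultures, 6 in some and 7 in none. Olig2 and Zic1 (11.9 to 39.9 CPM), which other progenitors also use, were among the 3. Nkx2-1, of the medial ganglionic eminence, had 0 counts in all cultures, and Dlx2 and Lhx6, of the interneuron lineage, stayed at or under 0.561 CPM. Gad1, the enzyme gene of GABA synthesis, had 7.50, 21.6, 4.69, 27.5 and 0.299 CPM.

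Other dorsal genes, of cortical progenitors and of neurogenesis, split the cultures. Emx1, a marker of cortical progenitors, had 0, 4.19, 3.72, 1.73 and 0 CPM in females 1 and 2 and males 1 to 3. The proneural factor gene Neurog2 had 0.0314, 2.62, 6.81, 2.06 and 0 CPM, and Dmrt3 0.345, 9.65, 9.32, 2.71 and 0.199. Female 2, male 1 and male 2 expressed all 3, and female 1 and male 3 were near the floor of 3 counts or under 0.35 CPM.

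The factors of the neurons that follow went the same way. Tbr1, of deep-layer neurons, had 0.220, 2.49, 1.18, 5.75 and 0.0664 CPM. Neurod2 had 0.0314, 1.67, 1.15, 4.39 and 0 CPM, Neurod6 0.0314, 3.71, 4.59, 5.79 and 0.166, and Fezf2 0.0942, 1.30, 1.36, 2.76 and 0. Of 12 dorsal genes with a mean of 1 CPM, 9 were lower in both female 1 and male 3 than in any other culture. So were 9 of 12 glutamatergic and layer genes (19.8% over all genes tested). Of these lists, 7 dorsal and 8 glutamatergic and layer genes were detected in all 5 cultures. Members such as Neurod2 and Fezf2 passed the mean only through the cultures where they were high, so these counts describe the split and do not test it. Eomes, of intermediate progenitors, was at most 0.654 CPM in any culture. In these bulk samples, fewer cells of a type and less RNA per cell cannot be told apart.

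**Figure D2:**
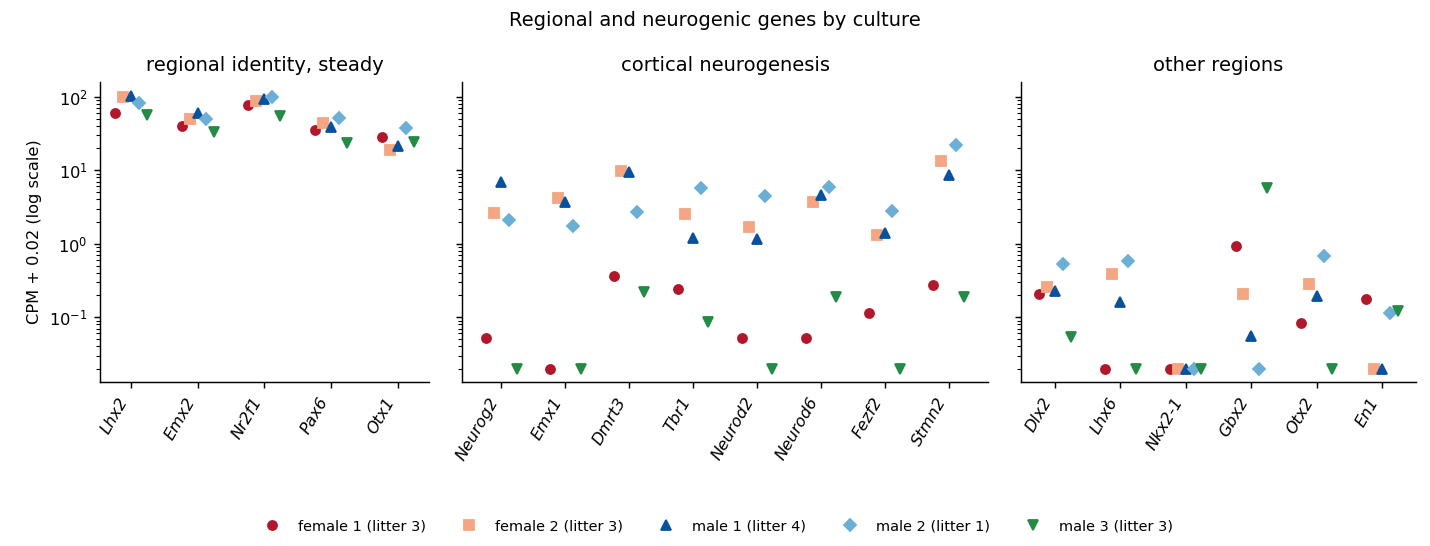
CPM plus 0.02 on a log axis for telencephalic identity genes, cortical neurogenesis genes and genes of other regions; each point is 1 of the 5 +/+ cultures. The identity genes shown, grouped as steady after their values were seen, lie between 18.5 and 103 CPM in all cultures. Female 1 and male 3 lie below the other 3 in each of the 8 neurogenesis genes. Emx1, Dmrt3, Neurog2 and Tbr1, which belong to the dorsal telencephalic list, are placed in that second group.

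Other cell types left few traces. The 13 microglia genes summed to 1.78 to 4.71 CPM, the 7 autosomal erythroid genes to 0.451 to 1.63 and the 10 endothelial genes to 5.70 to 8.83, of which Egfl7 made up 2.16 to 5.28. The 12 pericyte, fibroblast and meninges genes summed to 14.8, 17.6, 10.9, 6.54 and 34.2 CPM, highest in male 3, where the collagen gene Col3a1 was at 15.5 and the matrix gene Lum at 3.22. The ciliary factor gene Foxj1 was at 24.9 CPM in female 1 and 14.7 in male 3, against 2.01 to 4.88 in the others, while the choroid plexus gene Ttr had 0 counts in 4 cultures and 0.742 CPM in female 2. The part of these cells in the split of the neurogenic genes was not tested.

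Male 1 stood apart in genes of cell division. All 24 cell cycle genes were lowest in male 1, and their sum was 2700 CPM there, against 4987, 5878, 4646 and 5589 in female 1, female 2, male 2 and male 3. Male 1 was the lowest culture for 25.3% of all genes tested. The proliferation marker gene Mki67 had 600, 596, 375, 397 and 560 CPM, the replication clamp gene Pcna 288, 407, 157, 307 and 431, and the helicase gene Mcm5 204, 217, 74.4, 192 and 255. The median level over the list was 47.4 RPKM, against 8.15 over all detected genes. Of 9 cell cycle inhibitor genes, 4 were highest in male 1 (26.7% of all genes tested) and Cdkn2c was lowest there, at 40.3 CPM. The CDK inhibitor gene Cdkn1c was at 105 CPM in male 1 and 8.73 to 26.5 elsewhere, and Cdkn1a at 817 against 353 to 562.

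Cdkn2a and Cdkn2b, which brake the cycle and are known to rise with passage in culture, followed another order. Cdkn2a had 22.3, 10.4, 10.6, 2.76 and 34.1 CPM and Cdkn2b 52.5, 19.9, 38.3, 9.48 and 50.9. Both were lowest in male 2 and highest in female 1 and male 3. The related Cdkn2c and Cdkn2d shared part of this order. Cdkn2c had 82.0, 71.5, 40.3, 52.2 and 75.5 CPM, also highest in female 1 and male 3 but lowest in male 1. Cdkn2d had 53.3, 50.2, 40.3, 37.6 and 43.0 CPM, also lowest in male 2. The labels give no passage number.

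Immediate early genes, which respond within minutes to stimulation or handling, were highest in male 1 for 9 of 10 genes (26.7% of all genes tested), with a sum of 2054 CPM against 876, 883, 295 and 668. Fos had 31.2, 23.7, 398, 7.52 and 17.6 CPM, and Egr1 204, 465, 579, 73.2 and 184. Male 2 had the lowest sum. MHC class I genes, which present antigen, were highest in male 1 for 8 of 8 genes and lowest in male 3 for 8 of 8, for example H2-K1 at 77.3, 71.0, 150, 65.6 and 49.9 CPM. Of 14 interferon response genes, 5 were highest in male 1 (26.7% of all genes tested) and 7 in female 1 (18.9%), and 6 were lowest in male 3 (25.6%).

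**Figure D3:**
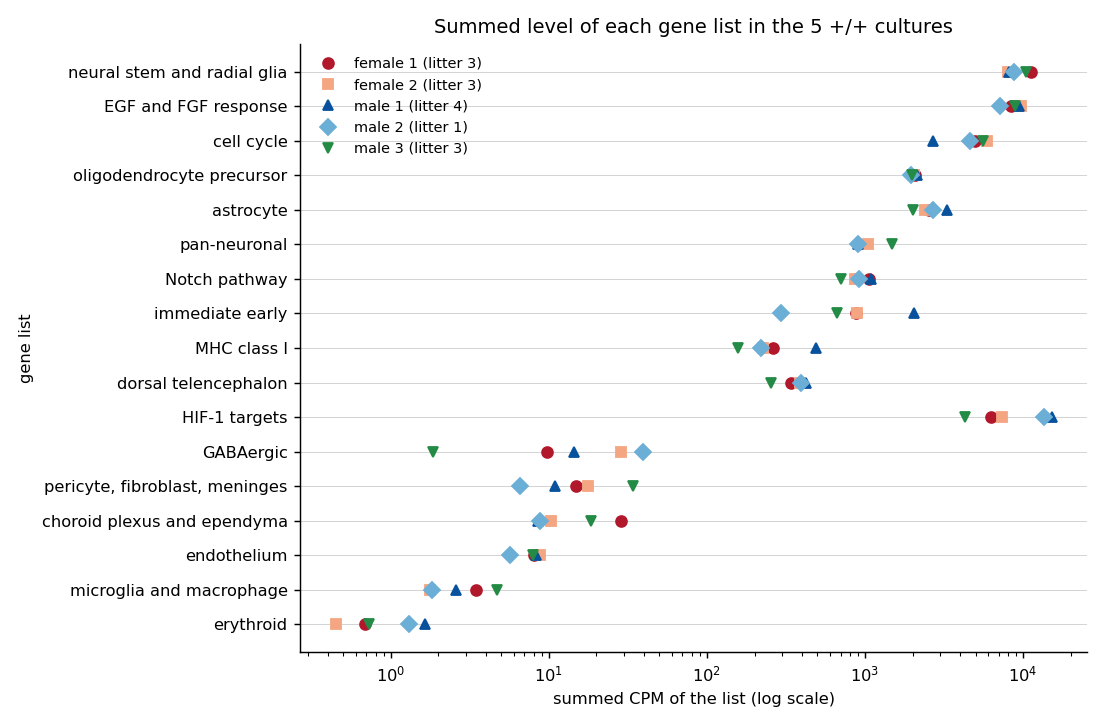
Summed CPM of gene lists on a log axis; each point is 1 of the 5 +/+ cultures. Male 1 has the lowest cell cycle sum (2700 CPM) and the highest immediate early sum (2054 CPM), and the HIF-1 target sum runs from 4258 CPM in male 3 to 15161 in male 1.

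Variation between the cultures was then taken gene by gene, as the SD of log2 CPM over the 5 cultures. The median SD of 13243 autosomal genes with a mean of at least 1 CPM was 0.33, and 845 (6.38%) had an SD over 1, which was taken as variable. Among 10882 genes with a mean of at least 5 CPM, 369 (3.39%) were variable. Just outside the threshold were Tuft1 and Rarres1 (both 1.00 when rounded), and just inside it Gm27529 and Mcub (both 1.00). The steadiest genes were Arhgef7, a Rac exchange factor gene, at 123 to 127 CPM, and the ubiquitin ligase gene Itch at 121 to 126.

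The variable genes drew on 2 cultures more than on the others. Of the 845, male 1 was highest in 393 (46.5%), against 26.7% of the genes tested, and male 3 was lowest in 402 (47.6%), against 25.6%. These are the cultures with the lowest pairwise correlation. Of protein-coding genes 5.89% were variable, of pseudogenes 6.51%, and of the other classes, mostly noncoding RNA, 16.4%. In the E147A/+ cultures, which played no part in choosing these genes, 343 of 769 variable genes that could be measured (44.6%) also had an SD over 1, against 267 of 12275 other genes (2.18%) and 4.68% of all. The E147A/+ cultures come partly from the same litters 1 and 3. An SD over 1 was also more frequent at low levels (6.38% of genes from 1 CPM, 3.39% of those from 5 CPM). The shares above were not matched for level.

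Of the 25 most variable genes with a mean of at least 5 CPM and a named gene model, Car9, which encodes the cell-surface carbonic anhydrase IX, had the largest SD (4.01). Its place rests on the setting and on male 1: with a prior count of 0.5 Ndufa4l2 was above it (4.26 against 4.13), and so it was without female 1 (4.44 against 4.35). Without male 1 the SD of Car9 was 2.84, below that of Islr2 (3.67), Stmn2 (3.45), Ndufa4l2 (3.44), Nr5a2 (2.93), Slc16a3 (2.85) and Gad1 (2.85). Car9 had 0.847, 2.23, 254, 25.4 and 0.166 CPM in females 1 and 2 and males 1 to 3, from 5 to 7298 counts. Ndufa4l2, encoding a mitochondrial protein, came next with 0.816, 0.371, 53.6, 27.8 and 0.0332 CPM. The lactate exporter gene Slc16a3 had 19.1, 49.7, 184, 166 and 1.46 CPM, the collagen-crosslinking enzyme gene Loxl2 2.48, 1.96, 47.8, 18.6 and 0.830, and the cytochrome oxidase isoform gene Cox4i2 2.01, 2.41, 17.5, 11.6 and 0.266. These 5 are among the 8 of the 25 genes in which males 1 and 2 lay above the other 3 cultures. Over the 845 variable genes 294 had this order, and over all genes tested 14.6%. The 25 were ranked on these same values, so such counts, here and below, are a description and not a test.

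Another order among the 25 had female 1 and male 3 lowest. It overlapped with the order above, and Car9, Slc16a3, Cox4i2, Clstn3 and Nxph4 were among the genes that had both. Low in both female 1 and male 3 were Islr2 (0.565, 9.65, 7.27, 15.9 and 0 CPM), which takes part in axon growth, Stmn2, Tmem132b (4.61, 60.7, 95.2, 23.3 and 1.1), the neurotrophin receptor gene Ngfr (1.82, 39.3, 50.3, 7.01 and 0.830) and the synaptic vesicle gene Rph3a (2.26, 48.6, 43.5, 78.3 and 4.25). Clstn3, a synaptic adhesion gene, had 1.38, 35.5, 96.2, 46.6 and 11.4 CPM, and the kinase gene Map3k9 0.534, 6.07, 21.7, 5.61 and 0.365. Of the 25 genes, 12 had this order, as did 411 of the 845 variable genes and 19.8% of all genes tested. Nxph4, a neurexophilin gene, was at 22.5 CPM in male 1, 7.48 in male 2 and at most 0.610 in the others.

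Another 7 of the 25 were higher in both female 1 and male 3 than in any other culture. That was so for 154 of the 845 variable genes and 17% of genes tested. The nuclear receptor gene Nr5a2 had 11.9, 1.38, 0.243, 0.280 and 29.7 CPM, and the integrin gene Itga4 96.4, 4.85, 2.57, 6.45 and 74.7. The lactoperoxidase gene Lpo had 12.8, 1.22, 0.278, 0.514 and 18.1 CPM, the serotonin receptor gene Htr1b 12.5, 1.09, 0.382, 0.794 and 14.7, and the TNF-family ligand gene Tnfsf18 25.8, 1.01, 0.904, 3.69 and 20.4. Pcp4l1 and the noncoding AI506816 followed the same order. Female 2, of the same litter as female 1 and male 3, lay with males 1 and 2 in these genes.

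Some genes followed neither order. Fosb was at 28 CPM in male 1 and at most 1.79 elsewhere. Zfp984, 1 of a family of similar zinc finger genes on chromosome 4 whose reads may be shared, was at 0.187 CPM in male 2 and 2.73 to 8.76 elsewhere. Cd93, a C-type lectin-like receptor gene, had 257, 8.86, 3.30, 65 and 59.3 CPM. The Castaneus share of the allelic counts of Cd93 was 87.1% in female 1 and 0.775% in female 2. Of the 25 genes, 9 lay in bins of different state in females 1 and 2, 13 in bins of the same state and 3 in unclear bins. Over all genes in such bins, 5595 lay in bins of different state and 6756 in bins of the same state. In the E147A/+ cultures 21 of the 25 had an SD over 1, against 4.68% of all genes.

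**Figure D4:**
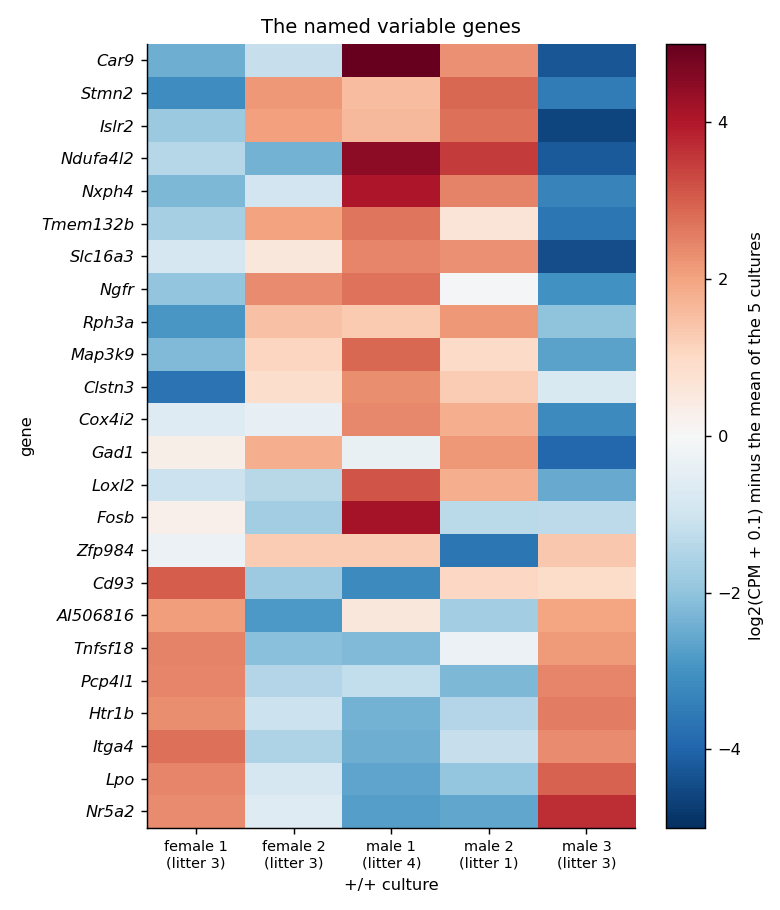
Log2 of CPM plus 0.1, minus the mean of the 5 cultures, for 24 of the 25 most variable genes under the naming rule (rows) in each +/+ culture (columns); red is above and blue below the mean. From the top down to Clstn3, female 1 and male 3 lie below the mean of the 5 cultures, and from AI506816 down both lie above it.

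Several of the most variable genes are textbook targets of HIF-1, the transcription factor that is stabilised when oxygen is low and that raises glycolysis, lactate export and vessel growth. A list of 40 autosomal HIF-1 targets was therefore written, after these values were seen, and is given as a description. Of the 40, 38 were higher in both males 1 and 2 than in any of the other 3 cultures, against 14.6% of the 13243 genes. The exceptions were Pfkfb4 and Ak4. In 26 of the 40, female 1 and male 3 were both below every other culture (19.8% of all genes tested). Of the 40, 19 (47.5%) had an SD over 1, against 6.38%, and the median SD was 0.94, against 0.33.

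The summed level of the 40 genes was 6253, 7326, 15161, 13568 and 4258 CPM in females 1 and 2 and males 1 to 3. Vegfa, the vessel growth factor gene, had 146.6, 242, 897, 1475 and 52.6 CPM. The mitophagy receptor gene Bnip3 had 25.3, 52.1, 294, 241 and 9.99 CPM, and Pdk1, whose kinase shuts pyruvate out of the mitochondrion, 39.3, 136, 296, 249 and 10.8. In these genes the cultures ran from male 3 through female 1 and female 2 to males 1 and 2.

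The glucose transporter gene and 3 enzyme genes of glycolysis had smaller ratios than these 3 genes. Slc2a1, the glucose transporter gene, had 34.8, 61.1, 172, 131 and 24.3 CPM, Gpi1 754, 762, 2095, 1698 and 385, and Tpi1 500, 684, 1244, 944 and 296. Ldha, for lactate dehydrogenase, had 1162, 1489, 2120, 1851 and 898 CPM, and the highest culture was 2.36-fold the lowest. Males 1 and 2 were again above the other cultures in all 4 genes, and male 3 was lowest.

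The 3 cultures at the low end are those of litter 3, and males 1 and 2 come from litters 4 and 1. The summed level in E147A/+ cultures was 14494, 15142 and 15080 CPM in 3 embryos of litter 1, 11066 in 1 of litter 2 and 7992 in 1 of litter 3. Across all 10 libraries, the 4 of litter 3 (4258 to 7992 CPM) thus lay below the 6 of other litters (11066 to 15161), with no overlap. Litter, the date of culture and handling cannot be told apart here, and oxygen was not given in the labels. Among the 4 litter 3 libraries the sum still differed, male 3 being lowest.

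**Figure D5:**
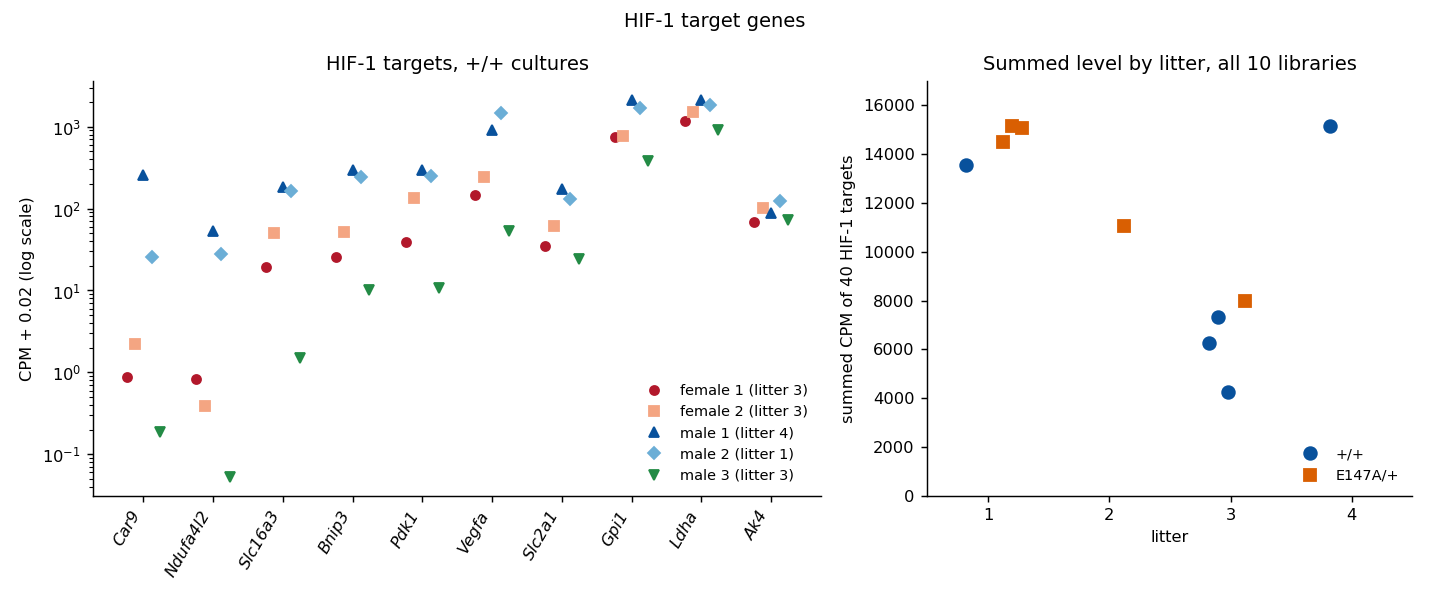
Left, CPM plus 0.02 on a log axis for 10 HIF-1 target genes in the 5 +/+ cultures; right, the summed CPM of 40 targets by litter in all 10 libraries, each point 1 library. Males 1 and 2 lie above the other +/+ cultures in each gene shown except Ak4, and all 4 libraries of litter 3 lie at or under 7992 CPM.

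HIF-1 binds the core letters ACGTG and GCGTG. Both were searched on both strands, overlaps allowed, in the 250 bases before each RefSeq start (GRCm38.p6), and 38.6% of 32807 such windows held at least 1. A match is a description, not a bound site. Windows of 4 genes that separate males 1 and 2 from the other cultures are shown, chosen because they hold a match, in capitals. A second Pdk1 window and 1 of 2 Vegfa windows held none. For Car9 only the 30 bases nearest the RefSeq start are given (chr4:43506996-43507025, plus strand), with 1 match, since GENCODE starts the Car9 transcript further upstream and counts these bases as exon. All 250 bases are given for Slc16a3 (chr11:120948817-120949066, plus), Bnip3 (chr7:138909507-138909756, minus) and Pdk1 (chr2:71872974-71873223, plus), with 2, 5 and 1 matches. Of these, 14 bases of the Slc16a3 window and 13 of the Bnip3 window are also exon in GENCODE.
Car9: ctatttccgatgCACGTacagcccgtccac
Slc16a3: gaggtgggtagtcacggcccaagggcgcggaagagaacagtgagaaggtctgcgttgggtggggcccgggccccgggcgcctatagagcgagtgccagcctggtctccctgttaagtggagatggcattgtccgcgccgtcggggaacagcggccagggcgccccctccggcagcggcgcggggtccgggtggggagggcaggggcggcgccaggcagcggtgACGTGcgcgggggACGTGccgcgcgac
Bnip3: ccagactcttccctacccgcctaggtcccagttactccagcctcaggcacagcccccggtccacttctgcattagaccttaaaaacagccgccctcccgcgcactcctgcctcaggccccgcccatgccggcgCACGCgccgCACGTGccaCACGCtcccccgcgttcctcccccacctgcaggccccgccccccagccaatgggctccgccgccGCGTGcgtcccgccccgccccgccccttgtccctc
Pdk1: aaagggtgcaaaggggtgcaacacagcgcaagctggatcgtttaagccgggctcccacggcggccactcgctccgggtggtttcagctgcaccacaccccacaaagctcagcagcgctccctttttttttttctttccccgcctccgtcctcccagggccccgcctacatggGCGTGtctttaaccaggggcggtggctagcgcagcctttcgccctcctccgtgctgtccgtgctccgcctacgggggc

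Sex was the labelled contrast tested within these cultures. In edgeR's quasi-likelihood test of 2 females against 3 males, 0 of 15598 autosomal genes passed an adjusted p of 0.05 (0% in each direction), with 194 at an unadjusted p under 0.05, and DESeq2 called 7. Xist, Eif2s3y and Uty, which are sex-linked, passed. The autosomal genes with the lowest p were the pseudogene Cbx3-ps7, at -3.36 log2 units in females relative to males (SE 0.39, edgeR adjusted p 0.189), and Retsat, a retinol saturase gene, at -2.14 (SE 0.29, adjusted p 0.284). The third was Gm20186 (edgeR adjusted p 0.496). All 3 passed with DESeq2 (adjusted p 1.45e-19, 6.7e-09 and 0.00324) and with edgeR without a filter on low counts (2.87e-05, 2.42e-05 and 7.61e-06), so these calls depend on the tool and the filter. With litter 3 as a covariate the edgeR adjusted p was 0.213, 0.650 and 1.00.

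Retsat had 16.1 and 11.3 CPM in the females and 70.9, 54.2 and 54.9 in the males, and within litter 3 the male was at 54.9. Retsat levels of the sexes overlapped in the E147A/+ cultures, at 60.7 and 15.2 CPM in females and 62.3, 63.7 and 14.7 in males. Both +/+ females came from litter 3, so sex and litter are separated only by male 3. Both females were also heterozygous for the XistdeltaA allele, so sex and that allele cannot be told apart here.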

How the data were processed

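Per the labels' protocols, stranded mRNA libraries were made from 500 ng of RNA and sequenced as 80 bp paired reads. Per the submitters' processing notes the tools named include Trim Galore 0.4.4, HISAT2 2.0.5, featureCounts and edgeR 3.24.0 (R 3.5.1), with GRCm38. Whole-number read counts for 52632 genes, as the authors deposited them, were the starting point. Here the 5 +/+ total-count columns were scaled by TMM in edgeR 4.0.16 (R 4.3.3). RPKM used union exon lengths of GENCODE M21, matched by identifier for 52485 genes. SDs are of log2 CPM with a prior count of 2, over autosomal genes with a mean of at least 1 CPM. A gene was called variable at an SD over 1.

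Females and males were compared by the quasi-likelihood test after filterByExpr, with Benjamini-Hochberg adjustment at 0.05. The culture is the replicate. Depth was 20648916 to 39123104 counts, and floors of 3 counts cover counting error only. The tests were tested on simulated counts first. DESeq2 1.42.0, other scaling, filters, prior counts and left-out libraries were alternatives.

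The cultures, gene lists and rules were chosen with earlier results of these data known. Named were the 20 highest genes by RPKM and 10 by CPM, up to 4 members of each list by RPKM and 6 by SD, and the 25 largest SDs with a mean of at least 5 CPM, leaving out 7 symbols of unnamed or pseudogene models. Where a gene was named outside this, to say which listed genes were low or split, it was chosen after its values were seen. Some items are not reported here.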

Additional observations from a re-analysis of the deposited data

Results flagged for a closer look

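In 65 checks of a culture lying far from the other 4 (library measures, list sums and named genes), 1 was met, where chance gives about 1 in 20. The summed level of the endothelium list was 5.70 CPM in male 2 and 7.90 to 8.83 CPM in the other 4 cultures. Counts of Y-linked genes lie outside the autosomal measurement. They reached 1.74% of the male mean in female 1 and 0.456% in female 2, above the 0.0352% and 0.0297% that 3 counts correspond to. The source of these counts was not tested.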

How the results depend on the processing

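The count of variable genes (845) moved to 369 with a mean of at least 5 CPM and to 1604 with an SD over 0.75. It ranged from 729 to 1001 when each culture was left out, and stayed within 1.5-fold under the other alternatives. The count of autosomal genes that differed by sex (0) became 7 with DESeq2 (5 lower in females), 37 without a filter (29 lower), and 1 with the replicate block (Ndufa4l2). It was 0 to 1 when each culture was left out, the 1 being Ndufa4l2 without male 3. Same-numbered cultures share only a number, and the correlations of their deviations were -0.324 and 0.272. Detected genes ranged from 11247 to 13005 over all alternatives and the list members detected in all 5 cultures from 224 to 240. Of 200 alternative SDs of the named genes, 198 stayed over 1. The exceptions were Fosb without male 1 (0.943) and Zfp984 without male 2 (0.809). The fits with males only (1197 variable) and litter 3 only (617) were added after the data were seen. Strain differences between embryos, 1 culture per embryo and litters that split unevenly over the sexes limit each comparison. The XistdeltaA allele of the +/+ females further limits that of the sexes.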
